A study of Mus musculus with 8 samples.

Results

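General capillary (gCap) identity genes are the transcripts by which the general capillary endothelial cells (ECs) of the lung are recognised. The set followed here was a list of 10 symbols, Gpihbp1, Kit, Aplnr, Plvap, Cd93, Glp1r, Hilpda, Cxcl12, Bmp6r and Tspan7, each matched to the gene name column of the count table. Of these, 9 had a row among the 54532 genes of the table, and all 9 passed the low count filter. The symbol Bmp6r matched no row and no alias in the name tables, was replaced by no other gene, and is not analysed here. The question was whether all markers of this cell type move alike when neonatal lungs grow in high oxygen.

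Bulk RNA-seq was made from lung ECs of wild-type C57BL/6J mouse pups at postnatal day 14. The 4 normoxia libraries came from pups kept in room air (21% O2), and the 4 hyperoxia libraries from pups kept in 80% O2 from the day of birth to day 14, a model of bronchopulmonary dysplasia. All animals of both groups were WT and carried no engineered allele. Per the methods, lung suspensions were depleted of CD45+ cells and ECs were then taken up on CD31 beads. Neither source says whether a library is 1 pup or a pool, and 5 of the 8 libraries held both Xist and Y-linked RNA, so that p-values measure only the spread between these libraries. Library totals ran from 16098086 to 18300730 counts. The defining EC markers were abundant, with Cdh5 at 3874 to 4355 CPM (counts scaled to a common library total) and Pecam1 at 2683 to 3068 CPM over the 8 libraries. Epithelial RNA differed with the group, and 1 library stood apart in it. The 14 epithelial markers summed to 171 to 278 CPM in normoxia, to 1952, 2159 and 2218 CPM in hyperoxia 4, 2 and 1, and to only 679 CPM in hyperoxia 3. Hyperoxia 3 also had the lowest sums of its group for fibroblast (243.4 CPM), mural (103.1 CPM) and leukocyte (232.5 CPM) genes. It held next to no Y-linked RNA (Ddx3y at 0.17 CPM), so it differed in more than epithelial RNA. Results that rest on hyperoxia 3 are therefore also given without it. Hyperoxia 3 was not alone in its sex-linked RNA, as normoxia 2 and hyperoxia 4 held next to no Xist (0.17 and 0.28 CPM).

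The walls of alveolar microvessels are a mosaic of general capillary cells and aerocytes (aCap), which carry different markers. When the bed is injured, the general capillary cells divide and can give rise to both kinds. The gCap markers do not form 1 pathway. Kit, Aplnr and Glp1r are receptors for circulating or local ligands, Gpihbp1 and Hilpda act in lipid handling, Cxcl12 is a secreted chemokine, and Plvap, Cd93 and Tspan7 are membrane proteins. In bulk RNA, fewer gCap cells and less of a transcript per cell cannot be told apart.

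RefSeq promoter windows (GRCm38.p6) were at hand for 5 of the 10 listed symbols (Kit, Glp1r, Cxcl12, Hilpda and Tspan7), and for none of Gpihbp1, Aplnr, Plvap, Cd93 and Bmp6r. Of these 5, the 3 genes with the largest falls are shown beside Tspan7, which changed least. Kit (chr5:75574737-75574915), Glp1r (chr17:30901617-30901816), Cxcl12 (chr6:117168285-117168534) and Tspan7 (chrX:10484866-10485115) are all on the + strand, and each run stops before the first annotated exon. Capitals mark AGGAAG, a longer form of the ETS core GGAA, and CACCC, the core bound by Kruppel-like factors. CACCC reads GGGTG where it lies on the other strand.
Kit: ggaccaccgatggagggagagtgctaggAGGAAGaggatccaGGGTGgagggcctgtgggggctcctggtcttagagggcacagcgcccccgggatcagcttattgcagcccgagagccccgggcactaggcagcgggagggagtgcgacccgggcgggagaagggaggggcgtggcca
Glp1r: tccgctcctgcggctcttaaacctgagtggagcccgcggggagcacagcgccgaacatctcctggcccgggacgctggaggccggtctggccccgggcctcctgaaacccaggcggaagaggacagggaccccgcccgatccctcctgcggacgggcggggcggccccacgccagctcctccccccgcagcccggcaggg
Cxcl12: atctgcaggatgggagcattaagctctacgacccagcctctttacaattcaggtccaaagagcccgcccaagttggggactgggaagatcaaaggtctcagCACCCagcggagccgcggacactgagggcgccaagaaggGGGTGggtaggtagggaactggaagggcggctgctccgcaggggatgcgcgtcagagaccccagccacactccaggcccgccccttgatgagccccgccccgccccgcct
Tspan7: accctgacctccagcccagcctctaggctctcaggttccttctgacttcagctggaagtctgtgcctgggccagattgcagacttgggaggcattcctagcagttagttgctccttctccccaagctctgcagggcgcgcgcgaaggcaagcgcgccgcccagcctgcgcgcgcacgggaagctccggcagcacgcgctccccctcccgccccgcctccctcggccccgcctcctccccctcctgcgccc
Kit held 1 AGGAAG and 1 CACCC on the opposite strand, and Cxcl12 held CACCC once on each strand. Glp1r and Tspan7 held neither AGGAAG nor CACCC. The shorter GGAA was neither marked nor counted, and the Glp1r and Tspan7 runs do hold it. None of the 4 held the hypoxia response core ACGTG, the forkhead motif GTAAACA or the GATA factor motif AGATAA on either strand of the 250 bases searched. Over 32851 RefSeq windows of that length, 29.5% held AGGAAG, 52% CACCC, 16.6% ACGTG, 9.99% AGATAA and 3.17% GTAAACA. Of the 2 Hilpda windows (not shown), 1 held AGGAAG and the other ACGTG. That ACGTG lay past the first annotated base of Hilpda, not upstream of it. Such matches describe the letters only.

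The gCap markers did not move alike. In hyperoxia 6 of the 9 were lower (Glp1r, Kit, Aplnr, Gpihbp1, Cxcl12 and Hilpda), 1 was higher (Cd93), and 2 did not pass the test (Tspan7 and Plvap). The test was edgeR's quasi-likelihood test over all 15564 genes that passed the filter, at a Benjamini-Hochberg adjusted p under 0.05. Over all genes tested 17.1% were lower and 18.5% were higher by the same rule. Log2 fold changes of hyperoxia relative to normoxia spanned 1.57, from -1.35 for Glp1r to 0.23 for Cd93, with a median of -0.60 against -0.004 over all genes tested. Kit and Glp1r alone among the markers also passed an absolute log2 fold change of 1, and 1.36% of all genes were lower by that rule. The 4 hyperoxia libraries lay below the 4 normoxia libraries without overlap in 7 markers, Tspan7 included, and in 17.6% of all genes tested. Without hyperoxia 3 the counts were 6 lower and 0 higher.

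**Figure D1:**
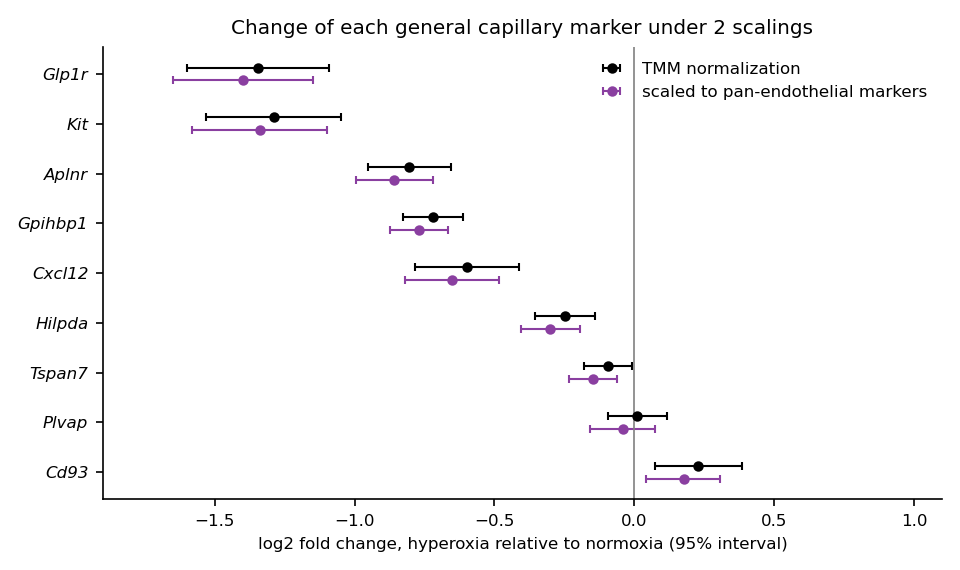
Log2 fold change (hyperoxia relative to normoxia, horizontal axis, with 95% intervals) of each marker from the edgeR fit with TMM normalization (black) and with libraries scaled to 13 pan-endothelial markers (purple). The changes are graded from -1.35 for Glp1r to 0.23 for Cd93 (TMM), and the sign of Plvap, near 0 in both, differs between the scalings.

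The scaling of the libraries touched the markers near 0. When the libraries were scaled to the summed counts of 13 pan-endothelial markers in place of TMM, Tspan7 was at -0.15 (SE 0.0386, adjusted p 0.0123) and Plvap at -0.04 (SE 0.0527, adjusted p 0.57). The other 7 markers stayed on their side of the threshold, with Glp1r at -1.40 and Cd93 at 0.18. With DESeq2 7 markers were lower, Tspan7 among them (adjusted p 0.00634).

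Epithelial RNA moved with the groups, and its part in these differences cannot be told apart from that of the exposure, as 88.4% of the variance of an epithelial score over the libraries lay between the groups. With that score as a term in the edgeR fit, 0 of the 9 markers passed the adjusted threshold (5 had an unadjusted p under 0.05), and all 9 kept their sign. Gpihbp1 then stood at -0.66 (SE 0.152, adjusted p 0.0691), Aplnr at -0.38 (SE 0.142, adjusted p 0.287), Cxcl12 at -0.27 (SE 0.236, adjusted p 0.691), Kit at -0.69 (SE 0.257, adjusted p 0.277), Glp1r at -0.57 (SE 0.231, adjusted p 0.335) and Cd93 at 0.60 (SE 0.169, adjusted p 0.138). Over all genes 205 passed in that fit, against 5535 without the score. Hyperoxia 3 had the least epithelial RNA of its group, but at 679 CPM still more than any normoxia library (171 to 278 CPM). Kit (453 CPM), Aplnr (344 CPM) and Glp1r (93.5 CPM) were highest of their group in it, while Gpihbp1, Cxcl12 and Hilpda were not. Each of these markers was there below every normoxia library. Without hyperoxia 3 their log2 fold changes ran from -0.23 for Hilpda to -1.46 for Glp1r. Whether epithelial RNA had a part in these values was not tested.

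Among the receptors, the largest fall was that of Glp1r, the receptor of the incretin hormone GLP-1 (chromosome 17, 30901867 to 30936510, GRCm38). It was measured at 174, 219, 174 and 210 CPM in normoxia 1 to 4 and at 72.6, 76.2, 93.5 and 63.8 CPM in hyperoxia 1 to 4. Every hyperoxia library lay below every normoxia library, and the mean went from 194 ± 23.9 to 76.6 ± 12.5 CPM (SD, n = 4 each), which means that it fell by 60.6% (-1.35 on the log2 scale, SE 0.116, edgeR adjusted p 1.12e-05). Kit, the receptor tyrosine kinase for stem cell factor and a marker of progenitors, lies on chromosome 5 (75574916 to 75656722). Its values were 880, 1035, 838 and 1004 CPM in normoxia and 411, 357, 453 and 317 CPM in hyperoxia. The groups were again apart, and the means were 939 ± 95.4 and 384 ± 59.5 CPM (-1.29 on the log2 scale, SE 0.109, adjusted p 9.66e-06). Kit and Glp1r kept the same order of libraries in part. In both, normoxia 2 and 4 were above normoxia 1 and 3, and in hyperoxia replicate 3 was the highest and replicate 4 the lowest.

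Kit is also a gene of mast cells, so their markers are given beside it. Of 8 mast cell genes 4 could be tested, and all 4 were higher in hyperoxia, the direction opposite to Kit. Their sum was 15.6 to 20.7 CPM in normoxia and 24.2 to 34.1 CPM in hyperoxia, most of it Hdc. Tpsb2 went from 0.028 to 2.13 CPM on average, with at most 53 counts in a library. The untested genes lay near the floor, with at most 24 counts in a library, and were mixed. Mcpt4 went from 0.07 to 0.82 CPM with groups apart. Groups overlapped for Tpsab1 (0 and 0.11 CPM), Fcer1a (0.10 and 0.04 CPM) and Ms4a2 (0.58 and 0.65 CPM).

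Aplnr, the receptor for the peptide apelin (chromosome 2, 85136225 to 85139923), was at 514, 537, 524 and 549 CPM in normoxia and at 287, 309, 344 and 275 CPM in hyperoxia. This was the tightest of the receptors in normoxia, and its groups were well apart. On average it fell by 42.7% (-0.80 on the log2 scale, SE 0.0668, adjusted p 8.7e-06). Hyperoxia 3 was the highest and hyperoxia 4 the lowest library of its group, as for Kit and Glp1r. Leaving out hyperoxia 3 gave -0.87 for Aplnr, -1.38 for Kit and -1.46 for Glp1r.

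In lipid handling, the larger change was that of Gpihbp1, which carries lipoprotein lipase to the luminal face of capillaries (chromosome 15, 75596628 to 75599481). It stood at 455, 434, 484 and 484 CPM in normoxia and at 288, 284, 285 and 272 CPM in hyperoxia. The hyperoxia libraries lay close together, and hyperoxia 3, which differed in epithelial RNA, was in their midst. The log2 fold change was -0.72 (SE 0.0487, adjusted p 2.19e-06), with the smallest adjusted p of the 9 markers. Hilpda, an inhibitor of the lipase ATGL on lipid droplets that is induced by low oxygen (chromosome 6, 29272488 to 29275446), was at 93.7, 93.3, 92.1 and 95.1 CPM in normoxia and at 75.8, 85.7, 76.5 and 77.1 CPM in hyperoxia. Hyperoxia 2 was high among its group and still below all normoxia libraries. On average Hilpda fell by 15.8% (-0.25 on the log2 scale, SE 0.0491, adjusted p 0.00271). Of 12 other genes induced by low oxygen through HIF, 5 were higher, 2 were lower (Vegfa and Pdk1) and 5 did not pass, and their sums overlapped (1043 to 1173 CPM in normoxia, 1081 to 1175 CPM in hyperoxia).

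Cxcl12, the chemokine that signals through the receptor CXCR4 (chromosome 6, 117168535 to 117181367), was at 825, 1019, 826 and 997 CPM in normoxia and at 538, 634, 634 and 615 CPM in hyperoxia. Normoxia 2 and 4 were the high libraries, as for Kit and Glp1r, but hyperoxia 1, not hyperoxia 4, was the lowest of its group. The log2 fold change was -0.60 (SE 0.0842, adjusted p 0.000315). Cxcl12 is also made by fibroblasts and mural cells, whose markers are given here. Of 8 fibroblast genes tested 4 were higher and 0 lower (sums 181 to 365 CPM in normoxia and 243 to 634 CPM in hyperoxia), and of 8 mural genes 7 were higher and 0 lower (sums 47.1 to 82.8 CPM and 103 to 181 CPM). Among other ECs, of 8 arterial markers 4 were lower and 1 was higher (sums 2778 to 3304 CPM in normoxia and 2358 to 2683 CPM in hyperoxia). Which cells account for the fall of Cxcl12 was not tested.

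The membrane proteins changed least. Tspan7, an X-linked tetraspanin (chromosome X, 10485158 to 10596605), was at 1194, 1172, 1197 and 1227 CPM in normoxia and at 1131, 1122, 1111 and 1122 CPM in hyperoxia. The groups did not overlap, but the difference was small (-0.09 on the log2 scale, 95% interval -0.18 to -0.01) and missed the threshold (adjusted p 0.0809). Plvap, which forms the diaphragms of fenestrae and caveolae (chromosome 8, 71497765 to 71511752), was at 1877, 1852, 1755 and 1803 CPM in normoxia and at 1900, 1834, 1888 and 1719 CPM in hyperoxia. Its groups overlapped over most of their range, and its log2 fold change was 0.01 with a 95% interval of -0.09 to 0.12 (adjusted p 0.884), an interval that held neither the value of Kit nor that of Cxcl12. Cd93, a transmembrane glycoprotein of endothelial adhesion and angiogenesis (chromosome 2, 148436640 to 148443563), was at 1921, 2013, 1849 and 2134 CPM in normoxia and at 2129, 2470, 2532 and 2149 CPM in hyperoxia. It was the only marker to rise, by 17.2% (0.23 on the log2 scale, SE 0.0704, adjusted p 0.0267), and its groups touched, hyperoxia 1 being just below normoxia 4. The rise did not pass when normoxia 1, normoxia 3, hyperoxia 2 or hyperoxia 3 was left out (log2 fold changes 0.18 to 0.21, adjusted p 0.067 to 0.0835).

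**Figure D2:**
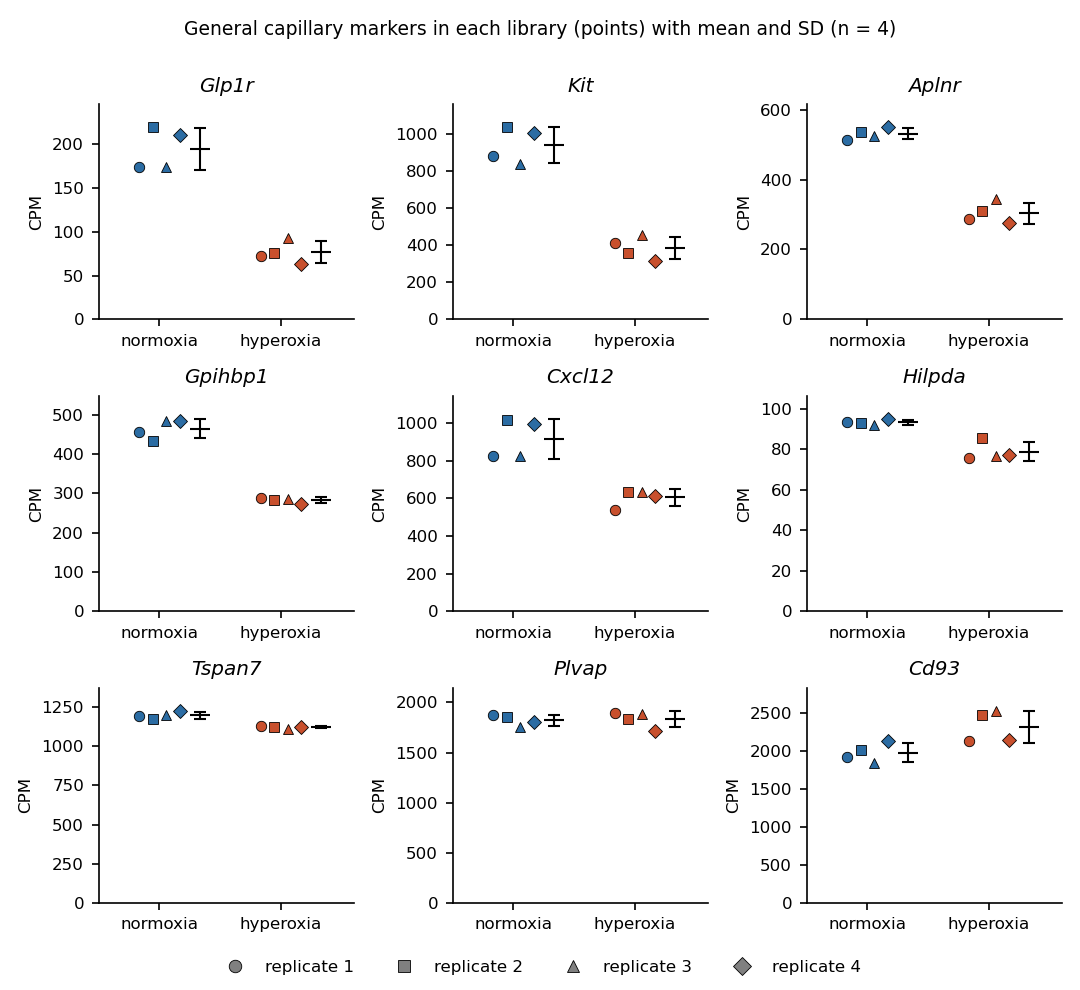
CPM (vertical axes from 0) of each marker in the 4 normoxia (blue) and 4 hyperoxia (red) libraries, symbols marking replicate numbers, with the mean and SD beside the points. Glp1r, Kit, Aplnr, Gpihbp1 and Cxcl12 show wide gaps between the groups, Hilpda and Tspan7 narrow ones, and Plvap and Cd93 overlap.

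To ask directly whether 2 markers changed unequally, the log2 ratio of their CPM was taken within each library, which does not depend on how libraries are scaled to each other. Of 36 pairs, 30 differed between normoxia and hyperoxia (exact permutation test, two-sided p = 0.0286, the smallest that 4 against 4 libraries can give, and 0.0343 after Benjamini-Hochberg adjustment over the 36 pairs). In these 30 pairs the 2 groups of ratios did not overlap. Leaving out a library cannot make such groups overlap, so no count without hyperoxia 3 is given. The widest split was between Glp1r and Cd93, whose log2 ratio fell by 1.58, and next came Kit and Cd93, which fell by 1.52. The pairs that share markers are not independent of each other. Pairs of other genes can differ as well, since 17.1% of all genes tested were lower and 18.5% higher in the edgeR test. The share of differing pairs over all genes was not computed, so 30 of 36 cannot be called particular to these markers.

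The ratios placed the markers in steps. Kit and Glp1r formed the lowest step, with a log2 ratio of 2.34, 2.24, 2.27 and 2.25 in normoxia and 2.50, 2.23, 2.28 and 2.31 in hyperoxia. That ratio moved by 0.05 (exact permutation p = 0.543). Aplnr, Gpihbp1 and Cxcl12 formed a middle step, since the ratios of Gpihbp1 to Aplnr (0.09, exact p = 0.257), Gpihbp1 to Cxcl12 (-0.12, exact p = 0.343) and Aplnr to Cxcl12 (-0.21, exact p = 0.114) did not pass. Kit fell against each of these 3, by 0.49 on the log2 scale against Aplnr, by 0.58 against Gpihbp1 and by 0.70 against Cxcl12. Hilpda differed from every other marker, its narrowest gap being that to Tspan7 (-0.15). Plvap could be told from neither Tspan7 (0.10, exact p = 0.0857) nor Cd93 (-0.22, exact p = 0.0571), while Cd93 and Tspan7 differed (0.32). A pair that missed the threshold is not shown to have moved alike. These steps were not kept in the edgeR fit with the epithelial score, where the log2 fold changes were -0.69 for Kit, -0.66 for Gpihbp1, -0.57 for Glp1r, -0.38 for Aplnr, -0.31 for Hilpda and -0.27 for Cxcl12, none of them past the adjusted threshold.

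**Figure D3:**
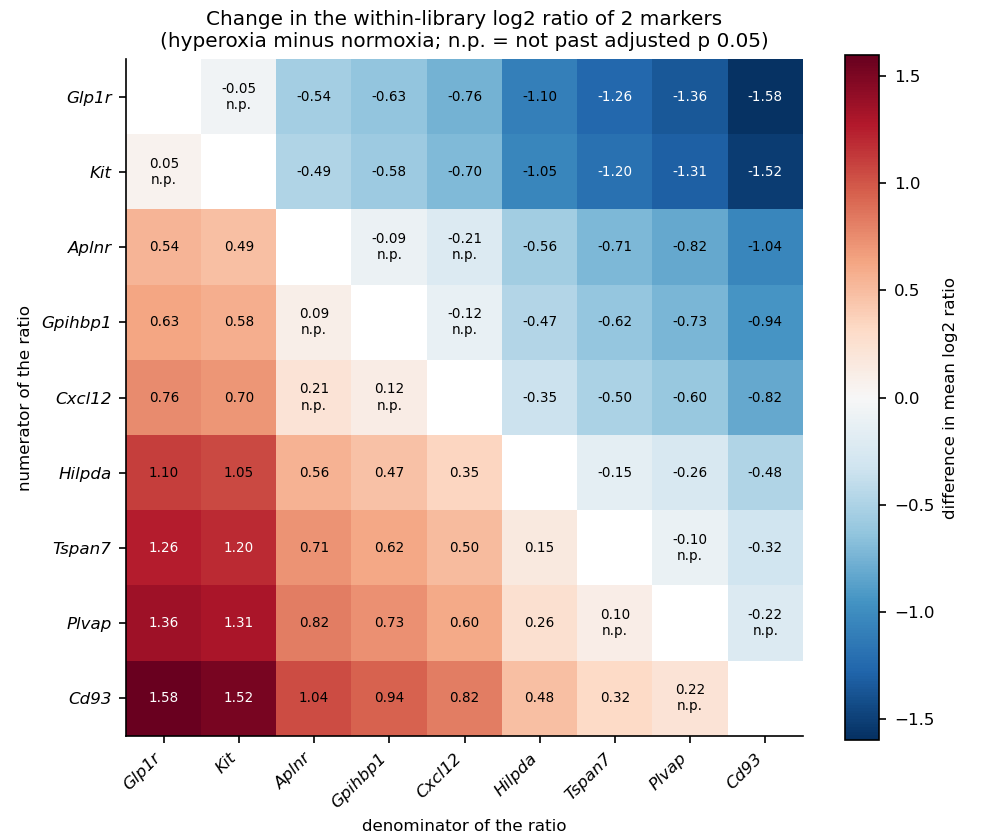
Change in the within-library log2 ratio of each marker (row) to each other marker (column), hyperoxia minus normoxia, colour and number giving the difference of the 4-library means. Pairs marked n.p. did not pass an adjusted p of 0.05 in the exact permutation test, and these 6 pairs join Kit with Glp1r, Aplnr with Gpihbp1 and Cxcl12, Gpihbp1 with Cxcl12, and Plvap with Tspan7 and Cd93.

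Levels of different genes can be compared only per gene length, for which the deposited FPKM (fragment counts divided by the length of the gene and by library size) were used. Plvap was by far the most abundant marker, at 909 ± 26.5 FPKM in normoxia and 919 ± 41.9 FPKM in hyperoxia (SD, n = 4), and Cd93 was second at 294 ± 18.0 and 346 ± 32.5 FPKM. All other markers lay below Plvap and Cd93, whether they fell or, as Tspan7, did not pass. In normoxia Gpihbp1 was at 180 ± 9.97 FPKM, Tspan7 at 168 ± 3.68, Aplnr at 142 ± 3.90, Glp1r at 130 ± 15.6, Cxcl12 at 111 ± 12.5, Kit at 105 ± 10.3 and Hilpda at 84.1 ± 1.17 FPKM. Of these neighbours, Gpihbp1 and Tspan7, Aplnr and Glp1r, Glp1r and Cxcl12, and Cxcl12 and Kit had ranges that overlapped.

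In hyperoxia the order changed. Tspan7 (158 ± 0.817 FPKM) moved above Gpihbp1 (110 ± 2.97 FPKM), and Cxcl12 (73.6 ± 5.72 FPKM) and Hilpda (71.1 ± 4.36 FPKM) moved above Glp1r (51.5 ± 8.50 FPKM), with Kit the lowest at 42.9 ± 6.68 FPKM. Aplnr held the fifth place at 81.8 ± 8.36 FPKM. Ranges overlapped between Aplnr and Cxcl12, Cxcl12 and Hilpda, and Glp1r and Kit. The place of Glp1r depends on its gene model, because the table lists 1480 bases for it where the GENCODE M21 annotation has 5811 exon bases from 30901817 to 30940791. The other 8 markers had the coordinates and lengths of that annotation, and in that annotation no exon of the 9 overlapped another gene.

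**Figure D4:**
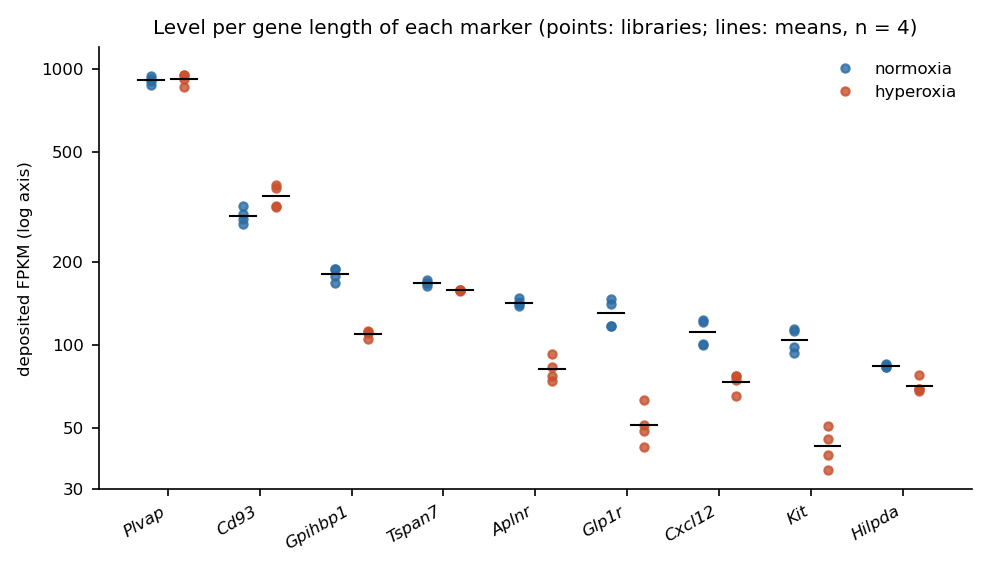
Deposited FPKM of each marker (log axis) in the normoxia (blue) and hyperoxia (red) libraries, with lines at the means of 4. Plvap and Cd93 lie highest in both groups, while Kit and Glp1r drop from 105 and 130 FPKM to the lowest places at 42.9 and 51.5 FPKM.

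Each marker that passed the test was also set beside 9077 protein-coding genes of at least 10 CPM for the closest pattern over the 8 libraries, by the root mean square difference of log2 CPM after each gene was centred on its own mean. Kit and Glp1r were each other's nearest gene, at 0.0821. The next were Sox11, a developmental transcription factor, for Kit (0.0986) and Cdk19, a kinase of the Mediator complex, for Glp1r (0.0989). Tek, the angiopoietin receptor, was nearest to Aplnr (0.0487), followed by the ceramide enzyme gene Ugcg (0.0582). Gpihbp1 lay nearest to Thra, a thyroid hormone receptor (0.0438), and to Acsf2 (0.059), with Aplnr only the 53rd. Cxcl12 was nearest to Ints6 (0.0411) and Zfp846 (0.0545), and Hilpda to Cdc5l (0.033) and Kdm4b (0.0394). Cd93 was nearest to Mcam (0.0365) and Robo4 (0.0452), which encode endothelial surface proteins. These distances are descriptions over 8 libraries that all carry the difference between the groups.

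The known ligands, receptors and binding partners of the markers did not follow them as a set. Of 20 listed, 18 could be tested, and 7 were higher, 6 lower and 5 not past the test, with a median log2 fold change of 0.15. For 2 ligands there was next to no RNA, since Gcg, the precursor of GLP-1, and Apela, the other ligand of Aplnr, had no library with more than 1 count.

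Both receptors with a locally expressed ligand fell while the ligand rose. Kitl, which encodes stem cell factor, was at 702, 649, 751 and 697 CPM in normoxia and at 1001, 1011, 900.3 and 1035 CPM in hyperoxia (0.50 on the log2 scale, SE 0.0594, adjusted p 0.00011). Apln, the ligand of Aplnr and itself an aCap marker, had means of 323 ± 47.9 and 920.3 ± 75.9 CPM (1.51 on the log2 scale, SE 0.103, adjusted p 2.31e-06). The groups of both ligands were apart. Dpp4, the peptidase that inactivates both GLP-1 and CXCL12, fell from 277 ± 12.5 to 160 ± 9.33 CPM (-0.79 on the log2 scale, SE 0.0541, adjusted p 2.37e-06).

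The receptors of CXCL12 moved in opposite directions. The signalling receptor gene Cxcr4 was at 92.6, 89.9, 99.4 and 87.6 CPM in normoxia and at 52.4, 33.9, 37.7 and 38.2 CPM in hyperoxia, a difference of -1.19 on the log2 scale (SE 0.115, adjusted p 2.43e-05). Ackr3, the atypical receptor that takes up and degrades the chemokine, was at 199, 199, 213 and 189 CPM in normoxia and at 406.7, 501.2, 459.9 and 459.7 CPM in hyperoxia (1.19 on the log2 scale, SE 0.0657, adjusted p 6.52e-07). Neither pair of groups overlapped.

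Partners of Gpihbp1 in the uptake of fat moved both ways. Lpl, the lipoprotein lipase, fell from 122 ± 9.33 to 84.4 ± 8.41 CPM (-0.53 on the log2 scale, SE 0.0789, adjusted p 0.000446), and the fatty acid transporter gene Cd36 fell from 1773 ± 77.8 to 1164 ± 46.3 CPM (-0.61 on the log2 scale, SE 0.0492, adjusted p 7.22e-06). Angptl4, an inhibitor of the lipase, was scarce, and rose from 5.47 ± 1.36 to 8.92 ± 2.76 CPM with overlapping groups (adjusted p 0.049). Lmf1, which matures the lipase, was at 17.0 and 19.2 CPM and did not pass (adjusted p 0.105). Around Hilpda, Abhd5, the coactivator of ATGL, rose from 29.8 ± 1.63 to 37.7 ± 1.93 CPM (adjusted p 0.00149), and Pnpla2, which encodes ATGL itself, Plin2 and G0s2 did not pass (adjusted p 0.111, 0.747 and 0.577).

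Both listed extracellular ligands of Cd93 rose with groups apart. The rise of Cd93 itself, with overlapping groups, passed in 11 of 17 alternative analyses. Mmrn2 went from 260 ± 10.2 to 509 ± 36.6 CPM (0.97 on the log2 scale, SE 0.0582, adjusted p 1.04e-06) and Igfbp7 from 626 ± 95.3 to 1155 ± 90.7 CPM (0.88 on the log2 scale, SE 0.0992, adjusted p 7e-05). Clec14a, a relative of Cd93 that binds Mmrn2 as well, fell from 782 ± 29.4 to 669 ± 29.5 CPM (-0.23 on the log2 scale, SE 0.0485, adjusted p 0.00432). Beside the steady Plvap, Cav1, the coat protein of caveolae, fell from 1930.0 ± 74.8 to 1412 ± 78.9 CPM (-0.45 on the log2 scale, SE 0.0523, adjusted p 8.74e-05), and Cavin1 did not pass (-0.09 on the log2 scale, adjusted p 0.176).

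**Figure D5:**
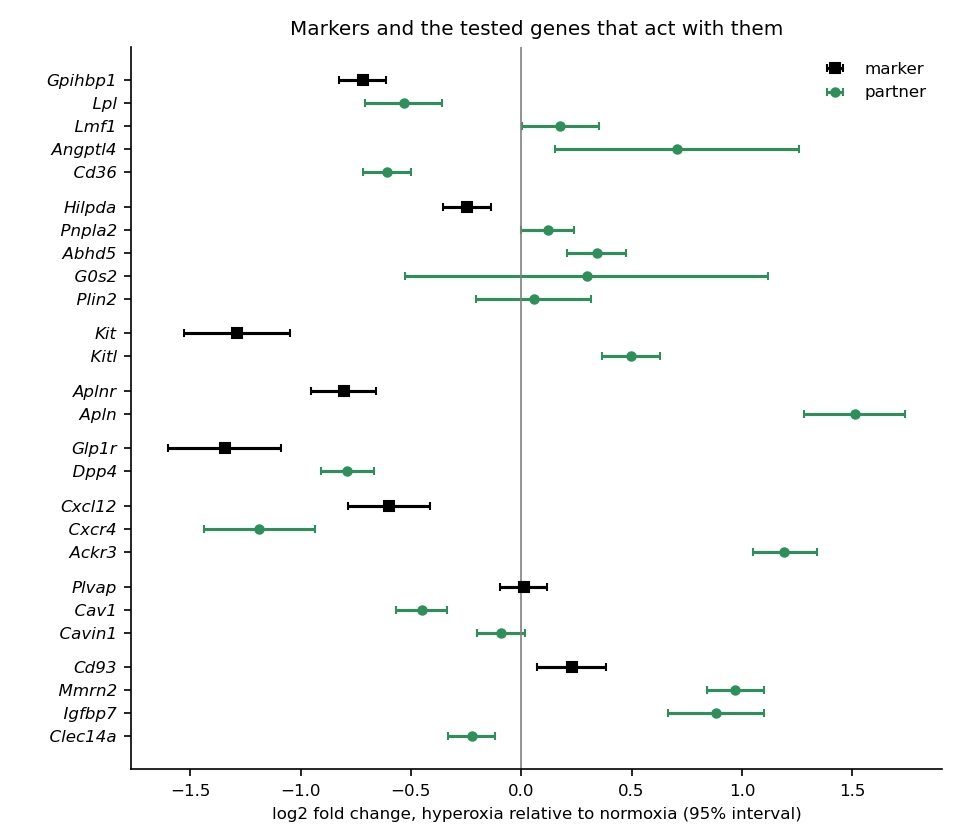
Log2 fold change (hyperoxia relative to normoxia, horizontal axis, 95% intervals, edgeR) of each marker (black squares) above the tested genes that act with it (green circles). Apln and Kitl lie to the right of 0 while Aplnr and Kit lie to the left, and Cxcr4 (-1.19) and Ackr3 (1.19) lie on opposite sides.

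Further genes ascribed to gCap cells were mixed as well. Of 8 such genes 5 were lower, 2 higher and 1 did not pass, with a median log2 fold change of -0.37. Cadm1 fell from 149 ± 14.3 to 70.2 ± 9.55 CPM (-1.09 on the log2 scale, adjusted p 1.55e-05), Tek from 1182 ± 68.2 to 682 ± 49.8 CPM (-0.79, adjusted p 6.35e-06), Ptprb from 3691 ± 449 to 2488 ± 275 CPM (-0.57, adjusted p 0.00113) and Bmp6 from 512 ± 20.3 to 374 ± 6.90 CPM (-0.45, adjusted p 2.41e-05). Npr3 only just passed (-0.28, adjusted p 0.0498) and its groups overlapped. Clec1a (0.14, adjusted p 0.0181) and Cd300lg (0.48, adjusted p 0.0178) rose, and Sema3c was at 1292 and 1300.0 CPM (adjusted p 0.916). In normoxia Ptprb was higher in replicates 2 and 4 (4123 and 4014 CPM) than in 1 and 3 (3433 and 3195 CPM), the same libraries that were high for Kit, Glp1r and Cxcl12. That order is not particular to gCap genes. It was also seen in the arterial gene Efnb2 (1188, 1539, 1164 and 1425 CPM in normoxia 1 to 4) and the aCap gene Nckap5 (263, 324, 243 and 322 CPM). The aCap gene Car4 had the reverse (271, 205, 304 and 236 CPM).

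Other endothelial lists differed in direction. Of 7 aCap markers 6 were higher and 1 (Nckap5) was lower, and their sum was 1358 to 1677 CPM in normoxia and 2532 to 2962 CPM in hyperoxia, where the 9 gCap markers summed to 7739 to 8505 CPM and to 6610.0 to 7418 CPM. Of 13 pan-endothelial markers 4 were higher, 2 lower and 7 not past the test, with sums of 16130.0 to 16950.0 CPM and 16460.0 to 17310.0 CPM that overlapped. Of 8 arterial markers 1 was higher and 4 were lower, of 6 venous markers 4 were higher and 0 lower, and of 5 lymphatic markers 4 were higher and 0 lower. Leukocyte genes showed 1 higher and 1 lower of 10. Of the 14 epithelial markers all were higher, with a median log2 fold change of 3.24.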

How the data were processed

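Paired-end libraries of bead-isolated lung ECs were analysed, 4 per group, grouped by sample title. The authors deposited whole-number gene counts and FPKM for the same 54532 genes. Per the submitters' processing notes, HISAT2 2.0.5, featureCounts 1.5.0-p3 and build mm10 were used. Strand use and the treatment of reads matching several genes are not given in the sources used here, nor is any correction for RNA of other cells. The labels name an RNeasy kit for RNA extraction and the methods name TRIzol. The gene length in bases that the authors list was used only to read levels, as it enters the deposited FPKM; 24250 genes had no count.

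Counts were tested with edgeR 4.0.16 (quasi-likelihood, TMM, filterByExpr, group as the only term) in R 4.3.3, with Benjamini-Hochberg adjustment over the 15564 genes tested, which held at least 99.8% of each library's counts. The biological coefficient of variation was 0.12. CPM are counts per TMM-scaled library size. SEs follow from the quasi-likelihood statistic. Marker pairs were compared as log2 ratios of CPM (prior count 0.5) by exact two-sided permutation over 70 assignments with scipy 1.17.1. The 9 markers held 1150 to 44237 counts per library. The parts of counting noise and of other spread between libraries in the error were not separated. Genes of at least 10 CPM entered the comparison of patterns. DESeq2 1.42.0, limma 3.58.1 (voom, and on log2 FPKM with pseudocounts of 1 and 0.1), RLE size factors, scaling to pan-endothelial markers, no filter, the replicate number as a block, an epithelial score (mean log2 CPM of the epithelial markers) and leaving out each library were alternatives, and the scripts were tested on simulated counts.

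The markers, the lists (partners, further gCap, aCap, pan-endothelial, arterial, venous, lymphatic, epithelial, fibroblast, mural, mast cell, leukocyte and HIF target genes) and the tests were chosen with earlier results of these data known. Named genes were the markers, their partners, genes of these lists given beside a result, and the 2 protein-coding genes nearest in pattern to each marker past the test.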

Additional observations from a re-analysis of the deposited data

Results flagged for a closer look

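Among 82 groups of 4 libraries (each marker, partner and marker list in each group), 2 held a library whose gap to its nearest neighbour exceeded Dixon's 95% critical share of the range, where chance would give about 4.1. Hilpda in hyperoxia 2 was measured at 85.74 CPM, while its group otherwise ran from 75.77 to 77.11 CPM (gap 0.866 of the range). Lpl in the same library was measured at 71.81 CPM, while the rest of its group ran from 87.59 to 89.53 CPM (gap 0.891 of the range). Both genes act in lipid handling, and the library was high for the one and low for the other. Neither value reached the normoxia libraries (92.1 to 95.1 CPM for Hilpda) or turned the direction of its gene.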

How the results depend on the processing

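Over 17 alternatives, Glp1r, Kit, Aplnr, Gpihbp1, Cxcl12 and Hilpda stayed past the threshold in 16, the exception being the epithelial score, and kept their sign in all 17. That score left 0 markers lower, 0 higher, 205 genes past the threshold in place of 5535, and 153 in place of 1087 with the fold minimum. As the score lies mostly between the groups, its effect cannot be told apart from that of hyperoxia. The number of markers lower was 7 with pan-endothelial scaling and with DESeq2 (Tspan7 joined) and 6 in each fit without 1 library. The 1 marker higher, Cd93, was lost with the replicate number as a block (0 higher, log2 fold change 0.23, adjusted p 0.0584) and ranged from 0 to 1 when a library was left out. Plvap turned to -0.042 under pan-endothelial scaling and ranged from -0.00862 to 0.0425 without 1 library, below 0 without normoxia 3 (-0.00862), hyperoxia 1 (-0.00517) or hyperoxia 3 (-0.0037). With limma on log2(FPKM + 1) 330 genes passed both thresholds, since the pseudocount shrinks low genes. Same-numbered libraries did not deviate together (correlations 0.116, 0.0324, -0.119 and -0.127), and differently numbered ones ran from -0.235 to 0.27. These values show no pairing by number but cannot exclude one. The block left 4792 genes past the threshold. Pairs apart numbered 30 with a prior count of 2 and with log2(FPKM + 1). The median log2 fold change of all genes was lowest under pan-endothelial scaling (-0.0562). DESeq2 gave 4 genes no adjusted p.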
